A study of Homo sapiens with 17 samples.

Results

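The genes described here encode forkhead (FOX) and SOX transcription factors of HEK-293T cells, a line of human embryonic kidney cells. Members were all genes of the 1 h TL-seq table whose symbol is FOX followed by a letter from A to S and a number, or SOX followed by a number. This gave 56 of the 19222 genes in the table, 40 FOX and 16 SOX. In the 1 h experiment, wild-type cells were incubated with 500 µM 4-thiouridine (s4U) alone (untreated, 3 libraries) or together with 1.8 µM emetine (3 libraries), an alkaloid that blocks the movement of ribosomes along mRNA. A further untreated library and a further emetine library came from cells that received no s4U. In the 2 h experiment, cells were untreated or received 1.8 or 240 µM emetine (3 libraries each), with 250 µM s4U in all groups. Nothing in the labels says whether replicates came from separate cultures on separate days, so p-values measure the spread between these libraries only.

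Forkhead proteins bind DNA through a winged-helix domain and SOX proteins through an HMG box, which bends the DNA at its site. Both families are known for setting cell identity in development, and single members have other roles: FOXM1 drives genes of mitosis, FOXO proteins are held in the cytoplasm by AKT signaling, and SOX2 is a core factor of pluripotent and neural progenitor cells. TL-seq measures the turnover of their mRNAs: RNA made during the incubation carries s4U, which chemistry turns into T-to-C conversions in the reads. The fraction new of a gene is the portion of reads from RNA made within the hour, estimated here from the conversions in each library.

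Many short-lived mRNAs carry the pentamer ATTTA in the 3′ UTR, the core of AU-rich elements. To show the sequences around it, 1 window of 29 bases is given for 7 of the 8 members that passed a test of level or fraction new below. Each was read from GRCh38 on the strand of the gene, within the 3′ UTR of the GENCODE canonical transcript, and capitals mark each ATTTA core.
FOXA1 (chr14:37591002-37591030, minus strand): ttgtggagggttATTTAaaaaaacaaaaa
FOXC1 (chr6:1612603-1612631, plus strand): tgcaacatagtaATTTAtttttaatttgt
FOXD2 (chr1:47439697-47439725, plus strand): ctcagggagtctATTTAtgaagtctccag
SOX2 (chr3:181713718-181713746, plus strand): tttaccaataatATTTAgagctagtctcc
SOX4 (chr6:21597402-21597430, plus strand): atatgtggacgtATTTAtactggccaaac
SOX9 (chr17:72124527-72124555, plus strand): ttccttaaagacATTTAagctaaaggcaa
SOX21 (chr13:94710082-94710110, minus strand): aattatatATTTAttATTTAgcaaaactg
The window of *SOX21* holds 2 cores, and each of the others holds 1. Over whole 3′ UTRs, *FOXA1* has 7 cores, *FOXC1* 6, *FOXD2* 4, *SOX2* 5, *SOX4* 4, *SOX7* 3, *SOX9* 8 and *SOX21* 4. A match describes the letters of the transcript and is not evidence that a factor binds there.

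Reads given to a gene numbered from 22246279 to 36429562 in the untreated and from 24241615 to 40018063 in the emetine libraries with s4U, and 23905660 and 31314746 without s4U. Emetine replicate 3 stood apart. The SD of its deviation from the group mean was 0.258 log2 units across genes, against 0.0878 to 0.105 in the untreated libraries and 0.135 and 0.155 in emetine replicates 1 and 2. Its deviation had a Spearman correlation with transcript length of 0.764 across 10096 genes, and those of emetine replicates 1 and 2 had correlations of −0.691 and −0.688 (deviations within a group sum to 0). Untreated replicate 1 had the smallest share of new reads, 7.84%, against 10.0% and 11.7% in the other untreated libraries and 9.19% to 9.96% with emetine. Of the HEK-293T markers, the neurofilament genes *NEFM* and *NEFL* stood at 178 ± 30.3 and 114 ± 7.06 CPM (counts scaled to library size and a fixed total) in untreated cells (SD, n = 3), and *KRT18*, *KRT8* and *PAX2* at 59.9, 5.99 and 1.80 CPM. Of 7 markers of other cell types, 4 (*PTPRC*, *HBB*, *UMOD* and *AQP2*) have no row in the table, *NPHS1* and *ALB* held at most 1 and 10 reads in a library with s4U, and the collagen gene *COL1A1* stood at 24.0 ± 3.50 CPM.

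Members were divided by their reads. Of the 56, 42 (30 FOX and 12 SOX) had more than 100 reads in total over the 6 libraries with s4U and were tested for level. The other 14 held 0 to 91 reads: *FOXA2*, *FOXB2*, *FOXC2*, *FOXE3*, *FOXH1*, *FOXJ1*, *FOXL2*, *FOXN1*, *FOXQ1*, *FOXR1*, *SOX10*, *SOX11*, *SOX15* and *SOX30*. *FOXL2*, *FOXN1*, *FOXR1* and *SOX10* had at most 1 read in all 8 libraries of the 1 h experiment. Fraction new was tested for the 29 members (21 FOX and 8 SOX) with at least 100 reads in each of the 6 libraries. The 13 members tested for level only held 189 to 814 reads: *FOXA3*, *FOXB1*, *FOXD3*, *FOXD4*, *FOXE1*, *FOXI3*, *FOXL1*, *FOXO6*, *FOXP3*, *SOX3*, *SOX5*, *SOX6* and *SOX18*.

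Levels between genes were compared per kb of transcript. *FOXM1*, the mitotic forkhead factor, was the most abundant member, at 61.8 ± 2.65 CPM per kb in untreated cells (SD, n = 3). *FOXC1*, a factor of mesoderm and eye development, followed at 36.5 ± 2.65, above *SOX12* at 27.7 ± 0.118 and *FOXF2* at 26.3 ± 2.37, which differed by less than the SD of *FOXF2*. *FOXD1*, a factor of kidney stroma, stood at 21.6 ± 1.45, *FOXK2* at 19.5 ± 0.249 and *SOX4* at 17.9 ± 2.19, and the last of these did not differ from *FOXK2* beyond its spread. *SOX2* and *SOX21* were the next SOX genes by the naming rule, at 6.49 ± 0.0406 and 4.11 ± 0.439 CPM per kb. *FOXP4* (12.9 ± 0.663) lay between these groups. Reads of some members could include those of neighbors or copies, since the strand setting of the counting is not stated. *SOX21* and its antisense gene *SOX21-AS1* held 2632 and 3003 reads, *FOXM1* overlaps *RHNO1* and *ITFG2*, *FOXK2* overlaps *WDR45B*, *FOXD3* overlaps *FOXD3-AS1*, and *FOXO3* shares sequence with the pseudogene *FOXO3B* (6660 and 2760 reads) and *FOXD4* with its FOXD4L copies.

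In untreated cells, a large share of FOX and SOX mRNA was made within the hour. The median fraction new was 33.6% over the 29 members, 32.4% over FOX and 58.6% over SOX genes, against 12.2% over all 10763 genes tested. If levels were steady and labeling began at once, these values correspond to median half-lives of 1.78, 1.82 and 0.829 h, against 5.65 h over all genes. A half-life under 1 h was found for 10 of the 29 members (34.5%), 5 FOX and 5 SOX, and for 4.62% of all genes. Untreated replicate 1 gave the lowest of the 3 values in 26 of the 29 members. The libraries without s4U, in which no read is new, gave a fraction new of at most 2.94%, in *FOXD2*.

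**Figure D1:**
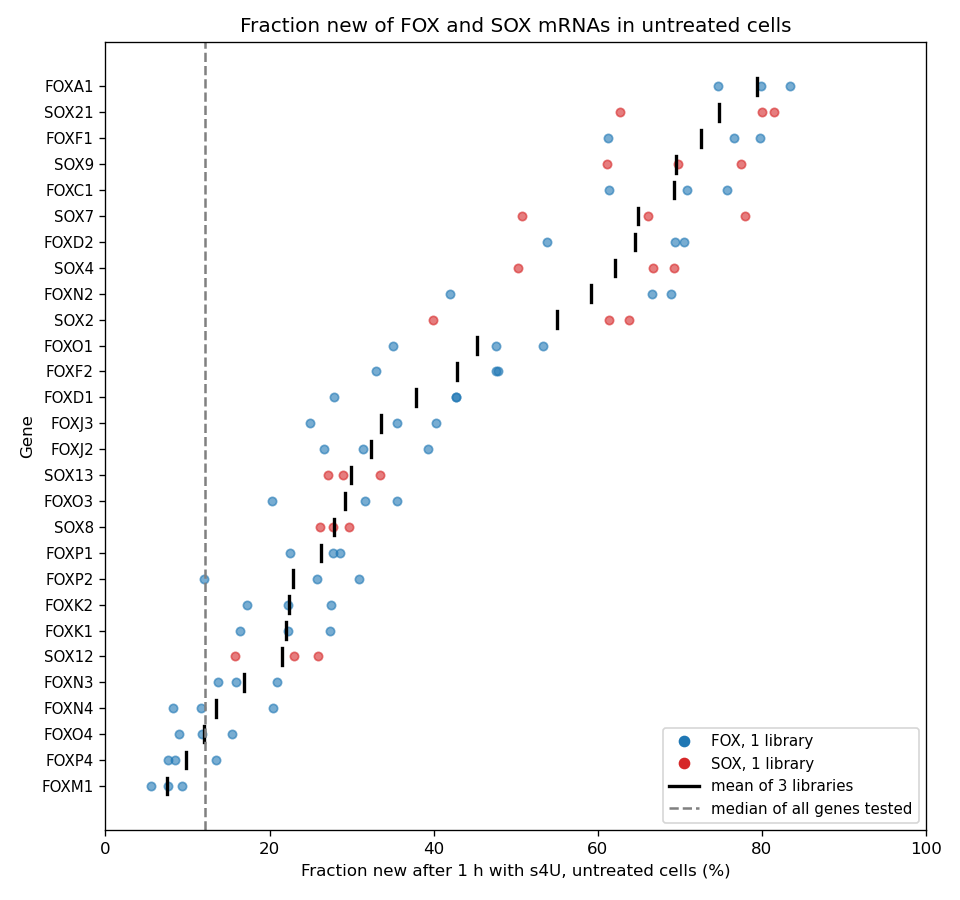
Fraction new in untreated cells after 1 h with s4U (x axis, %) for 28 FOX (blue) and SOX (red) genes with enough reads, with 1 point per library, a black bar at the mean of 3 libraries and a dashed line at the median of all genes, 12.2%. Means run from 7.51% in *FOXM1* to 79.3% in *FOXA1*, and 25 of the 28 means drawn lie above the line.

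*FOXA1*, a pioneer factor of endodermal tissues, had the highest fraction new, 74.7%, 83.5% and 79.9% in untreated replicates 1 to 3, or a half-life of 0.441 ± 0.0602 h (SD, n = 3). *FOXF1*, a factor of the visceral mesoderm, gave 61.3%, 76.5% and 79.7% (0.548 ± 0.160 h). *FOXC1* gave 61.3%, 70.9% and 75.7% (0.594 ± 0.123 h). Across libraries, the range of *FOXA1* overlapped that of both. Within each library *FOXA1* was the highest of the 3, but in untreated replicate 3 it was close to *FOXF1* (79.9% and 79.7%). Their order was not tested. *FOXD2* gave 53.8%, 70.5% and 69.4% (0.684 ± 0.186 h).

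At the other end of the FOX family, *FOXM1* had the lowest fraction new, 5.59%, 7.66% and 9.28%, or a half-life of 9.28 ± 2.51 h. *FOXP4* gave 7.60%, 8.42% and 13.4% (7.15 ± 2.08 h) and *FOXO4* gave 8.99%, 11.8% and 15.4% (5.67 ± 1.61 h). *FOXN4*, a factor of retinal and spinal progenitors, gave 11.6%, 8.28% and 20.4% (5.55 ± 2.49 h). These ranges overlap each other, and all but *FOXN4* have means below the median of all genes. Within each library, *FOXM1* lay below *FOXP4* and *FOXP4* below *FOXO4*, whereas the place of *FOXN4* varied. The remaining 13 FOX genes tested lay between 16.8% (*FOXN3*) and 59.2% (*FOXN2*), with *FOXK1* and *FOXK2*, a pair of paralogs, at 22.0% ± 5.44 and 22.4% ± 5.13.

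Among SOX genes, *SOX21* gave the highest values, 62.7%, 80.0% and 81.5% (half-life 0.515 ± 0.163 h). *SOX9*, a factor of cartilage, gonad and progenitor cells, gave 61.2%, 69.8% and 77.5% (0.592 ± 0.135 h). *SOX7*, an endothelial and endodermal factor, gave 50.8%, 66.1% and 77.9% (0.693 ± 0.264 h) and *SOX4* gave 50.3%, 66.7% and 69.3% (0.736 ± 0.222 h). *SOX2* gave 40.0%, 61.4% and 63.8% (0.923 ± 0.378 h). The ranges of these 5 genes overlapped across libraries, but within each library *SOX21* was the highest of them and *SOX2* the lowest. The other 3 SOX genes turned over more slowly, without overlap with those 5: *SOX13* at 29%, 27.1% and 33.5% (1.97 ± 0.250 h), *SOX8* at 27.7%, 29.7% and 26.2% (2.13 ± 0.160 h), and *SOX12* at 15.8%, 22.9% and 25.9% (3.0 ± 0.91 h). *SOX12* and *SOX4* both belong to the SOXC group, and every library of *SOX4* lay above every library of *SOX12*.

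The rule for members used only gene symbols, but the 29 members described here also passed the filter on reads. An ATTTA core in the 3′ UTR was present in 26 of the 29 members (89.7%), against 74.9% of 9875 coding genes tested, with a median of 2.20 against 1.75 cores per kb. The 3′ UTRs of the 29 were also longer, with a median of 2029 against 1413 bases. Without the filter on reads, 81.5% of the 54 members with a 3′ UTR had a core, with a median of 1.65 per kb. The longer TATTTAT, each of which contains an ATTTA, was present in 62.1% of members and 37.1% of coding genes. The 3 members without a core were *FOXM1*, *FOXP4* and *SOX12*, whose median fraction new was 9.82%, against 40.3% in the 26 members with one. Over all coding genes, these medians were 7.53% without and 13.5% with a core. A single exon made up 8 of the 29 member transcripts (27.6%), against 1.45% of coding genes. The 12 members with 1 or 2 exons had a median fraction new of 63.3% and the 17 with more exons 26.2%, against 31.5% and 11.4% over all coding genes. Across the 29 genes, the Spearman correlation of fraction new was 0.602 with ATTTA per kb (0.181 over all coding genes) and −0.591 with the number of exons (−0.173). With transcript GC content it was −0.196 (−0.103). With transcript length it was −0.423, opposite in sign to the 0.306 over all coding genes. Genes share the same 3 libraries in these correlations and are not independent replicates. Members were also rich in G or C at the third position of codons, with a median of 82.0% against 58.3%.

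To determine how emetine changed the levels of these mRNAs, the 3 emetine and the 3 untreated libraries with s4U were compared with edgeR's quasi-likelihood test. Levels of 4 of the 42 members tested, *SOX4*, *FOXC1*, *SOX9* and *SOX7*, rose at an adjusted p-value under 0.05, where 2.64% of all 13776 genes did. In edgeR none fell, where 0.0436% of all genes did. At an unadjusted p-value under 0.05, 13 members were higher and 0 lower in edgeR, where 14.9% and 6.95% of all genes were. In DESeq2, 14 members were higher and 2 lower unadjusted, where 14% and 10.8% of all genes were. After adjustment DESeq2 called 5 members higher (those 4 and *FOXO1*) and 0 lower, where 5.95% and 1.13% of all genes passed. The median log2 fold change was 0.26 over members (0.22 over FOX and 0.32 over SOX genes) and 0.03 over all genes. It was above 0 in 36 of the 42 members and in 7443 of the 13776 genes. With spike-in reads as the scale, the median of all genes was 0.71 and that of the members 0.95, so that members stood 0.23 and 0.24 above all genes on the 2 scales. With a trend on transcript length and GC content removed, the medians were 0.11 and −0.05. In 16 members, the 3 emetine libraries all lay above the 3 untreated libraries, which held for 19.5% of all genes. In 3 members, *FOXM1*, *FOXP4* and *SOX12*, every emetine library lay below, which held for 15.2% of all genes. The number of calls depended on single libraries. Without emetine replicate 3, the library that stood apart, 7 members rose (those 4 with *FOXD1*, *FOXO1* and *SOX2*) and *FOXM1* fell, among 1365 genes higher and 527 lower in all. Without untreated replicate 1 or 2 no member passed, and without untreated replicate 3 only *SOX4* did, among 5, 5 and 19 genes higher in all. Without emetine replicate 1 or 2, *SOX4* and *FOXC1* passed, where 1.04% and 1.78% of all genes were higher.

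**Figure D2:**
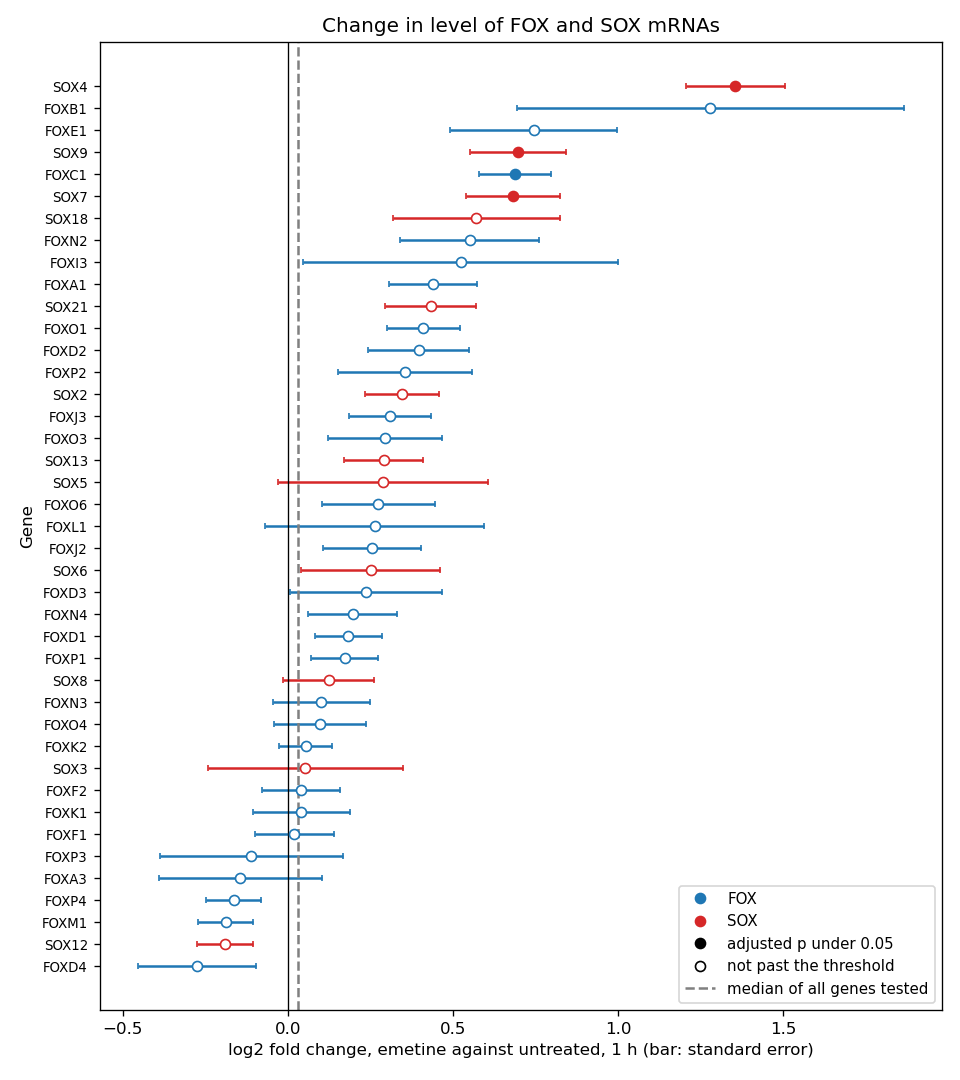
The log2 fold change in level after 1 h of emetine (x axis, bars: standard error from edgeR) for 41 of the members tested, FOX in blue and SOX in red, with filled points past an adjusted p-value of 0.05 and a dashed line at the median of all genes, 0.03. *SOX4* stands highest at 1.36, and *SOX9*, *FOXC1* and *SOX7* lie close together from 0.68 to 0.70. *FOXB1* and *FOXE1* lie as far out with wide bars and do not pass.

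*SOX4* (chromosome 6, 21593751 to 21598619, plus strand, 1 exon) encodes a SOXC factor of progenitor cells and tumors. Its level was 82.0, 80.3 and 99.5 CPM in the untreated and 197, 199 and 274 CPM in the emetine libraries. The groups did not overlap, and emetine replicate 3 was the highest. The log2 fold change of 1.36 had a standard error of 0.15 (edgeR adjusted p = 0.00584). Between the libraries without s4U, which the test did not use, the level was 107 CPM untreated and 252 CPM with emetine, a log2 ratio of 1.23 (95% exact interval for counting error only, 1.17 to 1.30). The adjusted p-value became 0.0874 without untreated replicate 1 and 0.0705 without untreated replicate 2, and *SOX4* was the only member past the threshold with spike-in scaling.

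*FOXC1* (chromosome 6, 1609915 to 1613897, plus strand, 1 exon) had 148, 134 and 155 CPM in the untreated and 227, 212 and 264 CPM in the emetine libraries. The groups did not overlap, and the log2 fold change, 0.69, had a standard error of 0.11 (edgeR adjusted p = 0.0165). The libraries without s4U gave 158 and 243 CPM, a log2 ratio of 0.62 (0.56 to 0.68). Its call was lost with spike-in scaling (adjusted p = 0.121) and without any 1 of the untreated replicates 1, 2 and 3 (0.117, 0.130 and 0.0933).

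*SOX9* (chromosome 17, 72121020 to 72126416, plus strand) had 6.35, 6.70 and 8.31 CPM in the untreated and 11.2, 11.1 and 12.2 CPM in the emetine libraries, or a log2 fold change of 0.70 ± 0.15 (SE, edgeR adjusted p = 0.0436). *SOX7* (chromosome 8, 10723768 to 10730511, minus strand) had 5.13, 4.38 and 4.77 CPM in the untreated and 7.57, 7.34 and 7.99 CPM in the emetine libraries, or a log2 fold change of 0.68 ± 0.14 (SE, edgeR adjusted p = 0.0436). Neither gene overlapped between groups, and both sit just inside the threshold. Both edgeR calls were lost when edgeR was run with DESeq2's size factors (adjusted p = 0.0535 for *SOX9* and 0.0528 for *SOX7*). They were also lost with a replicate block (0.0876 and 0.106), with spike-in scaling and without any library other than emetine replicate 3. Both genes passed in DESeq2's own Wald test (0.00131 for *SOX9* and 0.00292 for *SOX7*). Without s4U, *SOX7* gave 4.16 and 7.88 CPM, a log2 ratio of 0.92 (0.58 to 1.27), and *SOX9* gave 9.98 and 12.3 CPM, a log2 ratio of 0.30 (0.07 to 0.54).

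**Figure D3:**
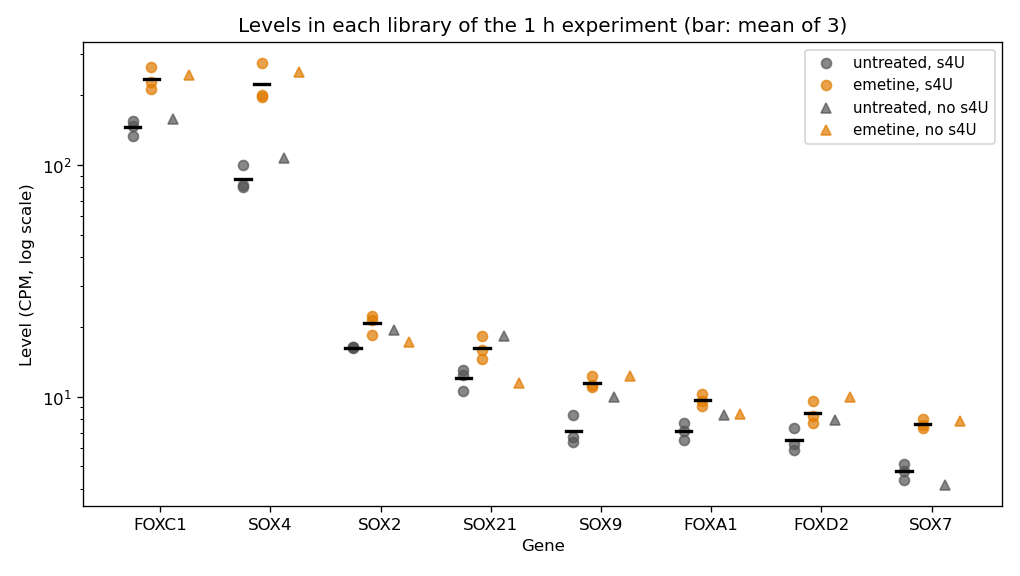
Level (y axis, CPM on a log scale) in each library of the 1 h experiment for the 8 members past an adjusted p-value of 0.05 in the test of level or of fraction new. Circles are libraries with s4U and triangles the libraries without it, grey for untreated and orange for emetine, and bars are means of 3. Emetine circles lie above the grey ones in every gene, whereas the orange triangle lies below the grey one in *SOX2* and *SOX21*.

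Among the abundant members that did not pass, *FOXM1* had 210, 220 and 229 CPM untreated and 188, 195 and 195 CPM with emetine (log2 fold change −0.19, standard error 0.08, adjusted p = 0.228). *SOX12* had 130, 129 and 129 CPM untreated and 115, 120 and 105 CPM with emetine (−0.19, standard error 0.09, adjusted p = 0.233). The groups did not overlap in either gene, nor in *FOXP4*, with 73.9, 76.4 and 81.7 against 67.1, 71.7 and 68.2 CPM. *FOXM1* passed the threshold, as lower, without emetine replicate 3 and with a trend on transcript length and GC content removed. *FOXF2* had 65.6, 58.0 and 69.4 CPM untreated and 70.3, 71.7 and 56.3 CPM with emetine, and *FOXD1* had 53.7, 50.9 and 58.2 against 66.6, 62.9 and 55.1 CPM. Both overlapped between groups.

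The fraction new of 6 of the 29 members fell with emetine at an adjusted p-value under 0.05 in limma: *SOX21*, *SOX7*, *FOXA1*, *SOX9*, *FOXD2* and *SOX2*. Of all 10763 genes, 4.83% fell. It rose in none of the members and in 0.214% of all genes. At an unadjusted p-value under 0.05, it fell in 10 members and rose in 0. The shares of all genes at that threshold were not computed, so these counts cannot be called particular to the members. The change in logit fraction new was below 0 in 28 of the 29 members, with a median of −0.37. Over all genes it was below 0 in 8132 of 10763, with a median of −0.16. Every emetine library lay below every untreated library in 9 members, which held for 16.8% of all genes.

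**Figure D4:**
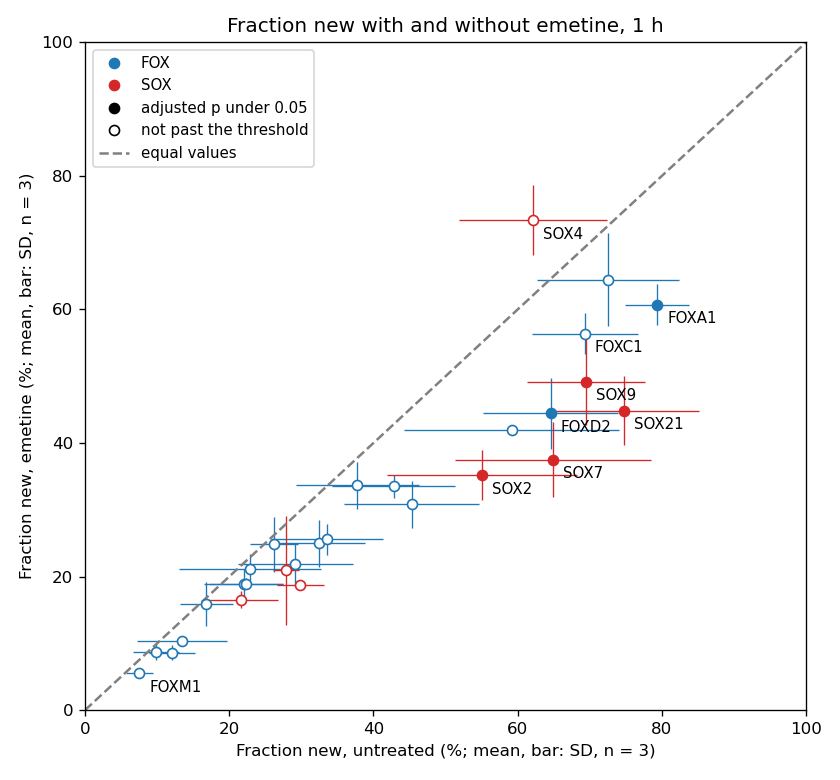
Fraction new in untreated (x axis, %) and emetine-treated cells (y axis, %) for 28 members, as means with SD bars over 3 libraries each, FOX in blue and SOX in red, with filled points past an adjusted p-value of 0.05 and a dashed line at equal values. *SOX4* (62.1% and 73.4%) is the only point above the line, and *SOX21* (74.8% and 44.8%) lies farthest below it.

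*SOX21* (chromosome 13, 94709622 to 94712545, minus strand, 1 exon), a SOXB2 repressor of progenitor genes, had the largest change in logit among members. Its fraction new was 62.7%, 80.0% and 81.5% untreated and 40.5%, 43.3% and 50.6% with emetine. The lowest untreated library lay 12.1 percentage points above the highest emetine library, and the change in logit came to −1.34 (standard error 0.26, limma adjusted p = 0.000262). Its level was 10.6, 12.5 and 13.0 CPM untreated and 15.9, 14.5 and 18.3 CPM with emetine (log2 fold change 0.43, standard error 0.14, adjusted p = 0.146, edgeR). Without s4U, the level was 18.3 CPM untreated and 11.4 CPM with emetine, in the opposite direction. The adjusted p-value of the fraction new was 0.0588 without untreated replicate 3.

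*SOX7* fell from 50.8%, 66.1% and 77.9% to 43.8%, 35.7% and 33.0% (change in logit −1.17, standard error 0.25, adjusted p = 0.00241, limma). *SOX9* fell from 61.2%, 69.8% and 77.5% to 49.1%, 42.7% and 55.6% (−0.88, standard error 0.25, adjusted p = 0.0224). *SOX2* (chromosome 3, 181711925 to 181714436, plus strand, 1 exon) fell from 40.0%, 61.4% and 63.8% to 31.0%, 36.5% and 38.1% (−0.82, standard error 0.24, adjusted p = 0.0264). In *SOX2*, untreated replicate 1 lay 1.91 percentage points above the highest emetine library. Its level was 16.4, 16.2 and 16.3 CPM untreated and 22.2, 18.5 and 21.5 CPM with emetine (log2 fold change 0.35, standard error 0.11, adjusted p = 0.151).

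In the FOX family, *FOXA1* (chromosome 14, 37589552 to 37596059, minus strand) fell from 74.7%, 83.5% and 79.9% to 63.5%, 61.3% and 57.4% (change in logit −0.92, standard error 0.26, adjusted p = 0.0196, limma), and *FOXD2* (chromosome 1, 47438044 to 47440691, plus strand, 1 exon) from 53.8%, 70.5% and 69.4% to 38.4%, 48.2% and 46.8% (−0.84, standard error 0.24, adjusted p = 0.0262). Both groups were separate. The level of *FOXA1* was 7.71, 7.13 and 6.51 CPM untreated and 9.57, 9.16 and 10.3 CPM with emetine, and that of *FOXD2* was 7.31, 5.90 and 6.23 against 9.62, 7.74 and 8.22 CPM. Neither level passed (adjusted p = 0.133 and 0.201, edgeR).

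These calls depended on single libraries. Without untreated replicate 1, 17 of the 29 members had a lower fraction new, where 23.5% of all genes did. Without untreated replicate 3 none did, where 0.873% of all genes did. Without any 1 of the other 4 libraries, 2 members passed, *SOX7* and *SOX21*, where 1.55% to 1.9% of all genes did. The calls of *FOXA1*, *FOXD2*, *SOX2* and *SOX9* were therefore lost without each library but untreated replicate 1.

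For *SOX4* and *FOXC1*, whose levels rose, fraction new did not pass. In *SOX4*, fraction new was 50.3%, 66.7% and 69.3% untreated and 69.5%, 71.3% and 79.3% with emetine. Every emetine library lay above the untreated ones, by 0.266 percentage points at the closest, and the difference in logit was 0.52 (standard error 0.26, adjusted p = 0.302, limma). No overlap in this direction held for 2.19% of all genes and for no other member. In *FOXC1*, fraction new was 61.3%, 70.9% and 75.7% untreated and 53.2%, 56.5% and 59.4% with emetine (−0.57, standard error 0.25, adjusted p = 0.203), without overlap but short of the threshold. *FOXC1* passed without untreated replicate 1 (adjusted p = 0.00992) and with genes weighted by their reads (0.0189), a setting in which *SOX7* (0.103) and *SOX9* (0.0928) did not pass.

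The 4 slow FOX genes and the 3 slow SOX genes did not pass in the main fit. Without untreated replicate 1, *FOXO4*, *SOX12*, *SOX13* and also *FOXF1* passed, as lower. *FOXM1* had a fraction new of 5.56%, 5.86% and 5.07% with emetine (adjusted p = 0.539), *FOXP4* 8.79%, 7.47% and 9.83% (0.886), *FOXO4* 7.73%, 8.12% and 9.85% (0.426) and *FOXN4* 10.7%, 9.89% and 10.2% (0.684). All 4 of these FOX genes overlapped with their untreated values. *SOX13* had 19.5%, 18.2% and 18.5%, below all its untreated values (−0.61, standard error 0.21, adjusted p = 0.0723), *SOX8* had 21.3%, 28.9% and 12.6% (0.316) and *SOX12* 15.7%, 15.8% and 18.0% (0.510). *FOXF1*, with a half-life close to that of *FOXC1*, had 68.2%, 56.4% and 68.9%, which overlapped with its untreated values (−0.40, standard error 0.26, adjusted p = 0.499).

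To separate RNA made before and during the treatment, each level was split into labeled reads (CPM multiplied by fraction new) and unlabeled reads (the remainder), and limma was run on each, as log2(CPM + 0.5). This scale understates the change of low genes. Unlabeled reads rose in 9 of the 29 members, where 7.3% of all genes did: *SOX21*, *SOX7*, *SOX9*, *FOXC1*, *FOXA1*, *FOXN2*, *SOX2*, *SOX4* and *FOXO1*. They fell in none, where 0.0929% of all genes did. Labeled reads rose in 1 member, *SOX4*, where 0.26% of all genes did, and fell in none, where 0.632% did. At an unadjusted p-value under 0.05 in limma, unlabeled reads were higher in 13 members and lower in 0. Labeled reads were higher in 1 and lower in 2. The shares of all genes at that threshold were not computed, so these counts cannot be called particular to the members. The median change over members was 0.38 for unlabeled and −0.12 for labeled reads, against 0.04 and −0.14 over all genes. Without untreated replicate 2 or 3, unlabeled reads passed in 3 members, *FOXC1*, *SOX21* and *SOX9*, where 2.68% and 2.52% of all genes were higher.

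In *SOX4*, labeled reads were 41.2, 53.6 and 68.9 CPM untreated and 137, 142 and 217 CPM with emetine, a change of 1.59 (standard error 0.20, adjusted p = 7.21e-12, limma). Its unlabeled reads were 40.7, 26.7 and 30.6 CPM untreated and 59.9, 57.3 and 56.6 CPM with emetine, a change of 0.84 (standard error 0.15, adjusted p = 0.0111). Both parts were separate between groups. The call for labeled reads held in each of 8 alternatives, and that for unlabeled reads was lost without untreated replicate 2 or 3 (adjusted p = 0.0543 and 0.0835).

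In *FOXC1*, unlabeled reads were 57.1, 39.0 and 37.5 CPM untreated and 106, 92.0 and 107 CPM with emetine, a change of 1.21 (standard error 0.16, adjusted p = 0.00332). Labeled reads were 90.6, 94.9 and 117 CPM untreated and 121, 120 and 157 CPM with emetine, a change of 0.39 (standard error 0.20, adjusted p = 0.413). In *SOX21*, unlabeled reads were 3.94, 2.49 and 2.41 CPM untreated and 9.44, 8.23 and 9.04 CPM with emetine, a change of 1.47 (standard error 0.19, adjusted p = 0.00306), whereas labeled reads were 6.63, 9.97 and 10.6 against 6.44, 6.30 and 9.27 CPM. Unlabeled reads of *SOX7*, *SOX9*, *FOXA1*, *FOXN2*, *SOX2* and *FOXO1* rose by 0.73 (*FOXO1*) to 1.32 (*SOX7*), and their labeled reads changed by −0.26 to 0.18, with no adjusted p-value under 0.05.

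**Figure D5:**
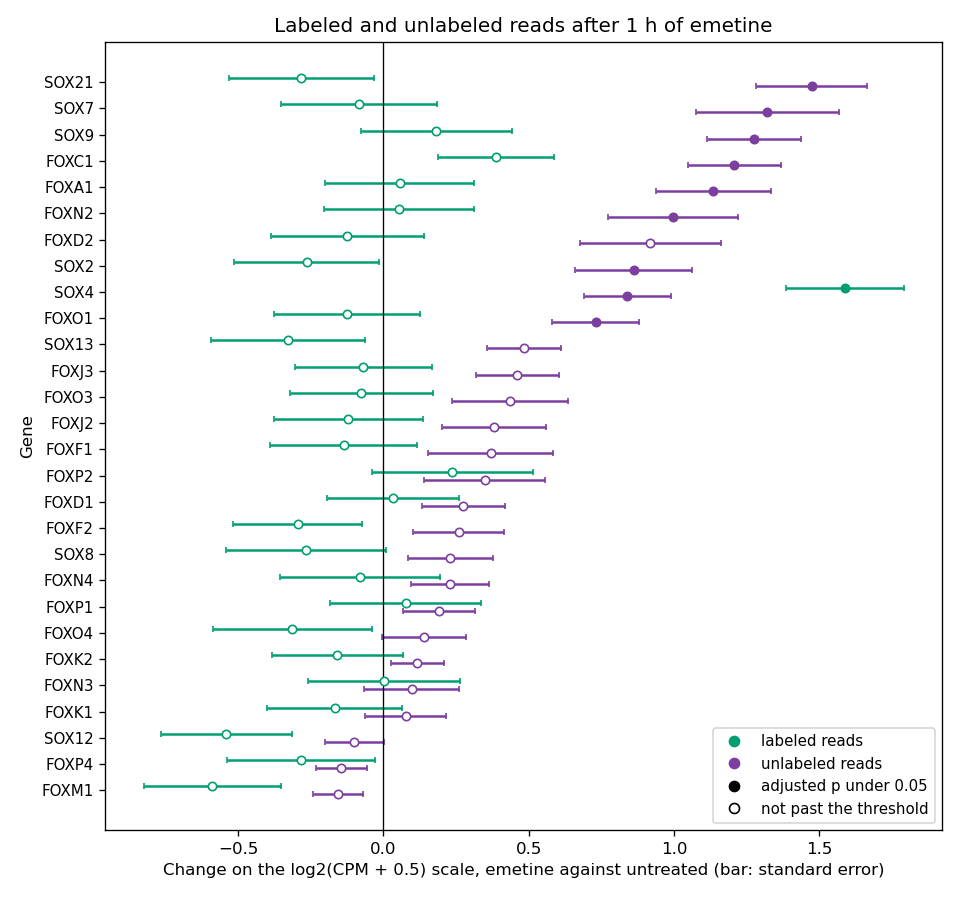
Change in labeled (green) and unlabeled reads (purple) after 1 h of emetine on the log2(CPM + 0.5) scale (x axis, bars: standard error from limma) for 28 members, with filled points past an adjusted p-value of 0.05. Unlabeled reads pass in 9 genes, from 0.73 in *FOXO1* to 1.47 in *SOX21*, and labeled reads pass in *SOX4* at 1.59.

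*FOXN2* and *FOXO1* passed for unlabeled reads and not for level or fraction new. These calls moved with the setting. Both lost the call for unlabeled reads with the replicate block and without untreated replicate 2 or 3, as did *FOXO1* without emetine replicate 1. The level of *FOXO1* passed in DESeq2 and without emetine replicate 3, and its fraction new passed, as lower, when centered on library medians and without untreated replicate 1. The fraction new of *FOXN2* passed, as lower, with the replicate block and without untreated replicate 1. *FOXN2* had a level of 8.03, 8.97 and 10.8 CPM untreated and 11.8, 10.9 and 18.1 CPM with emetine (log2 fold change 0.55, standard error 0.21, adjusted p = 0.197, edgeR), and an adjusted p-value for fraction new of 0.0815 (limma). *FOXO1*, a mediator of insulin signaling, had 16.5, 16.9 and 18.6 CPM untreated and 22.6, 21.5 and 25.1 CPM with emetine (0.41, standard error 0.11, adjusted p = 0.0977). Its fraction new was 35.0%, 47.6% and 53.3% untreated and 30.8%, 34.4% and 27.3% with emetine (adjusted p = 0.0996). The other FOXO genes did not pass in the main fits. *FOXO3* had log2 fold changes of 0.29 in level and 0.43 in unlabeled reads, and *FOXO4* of 0.10 and 0.14. The fraction new of *FOXO3* and *FOXO4* passed, as lower, without untreated replicate 1, as that of *FOXO1* did.

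In the pair of libraries without s4U, 46 members had at least 20 reads in total and allowed a ratio. The 95% interval, which covers counting error only, lay above 0 in 16 members and below 0 in 6, *FOXM1*, *FOXN2*, *FOXP4*, *SOX12*, *SOX15* and *SOX21*. The shares of all genes with such intervals were not computed, so these counts cannot be called particular to the members. Of the 8 members that passed a test, *SOX4*, *FOXC1*, *SOX7*, *SOX9* and *FOXD2* (0.33, 0.06 to 0.60) lay above 0. *FOXA1* (0.01, −0.26 to 0.29) and *SOX2* (−0.17, −0.35 to 0.01) included 0, and *SOX21* (−0.68, −0.89 to −0.48) lay below. With 1 library per treatment, these ratios compare 2 libraries and not the conditions.

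In the 2 h experiment, whose libraries came from a total RNA kit, 27 members (19 FOX and 8 SOX) are among the 9982 genes listed. They include 25 of the 29 members tested for fraction new at 1 h, all but *FOXD2*, *FOXN4*, *SOX7* and *SOX8*, and in addition *SOX5* and *SOX6*. The only value used is the authors' mean of normalized counts over all 2 h libraries, which pools the 3 treatments and has no error. *FOXC1* had a mean of 8944 and *SOX4* of 7734 normalized counts, against a median of 845 over all genes listed, and 207 genes lay above *FOXC1*. Per kb of transcript, *FOXC1* (2245) and *SOX4* (1588) were the most abundant members, above *FOXD1* (664) and *FOXM1* (517). In untreated cells at 1 h, *FOXM1* had come before all of these. Of the other listed members that passed a test at 1 h, *SOX21*, *SOX2*, *FOXA1* and *SOX9* had 161, 132, 115 and 64.5 per kb. These were not the next ranks, since other members, such as *FOXK2* (430) and *FOXO3* (373), lay above them. Changes at 2 h were not analyzed here, since the tables give the study's own comparisons only.

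Genes next to these factors were described from lists. Beside each list, 2.64% of all genes were higher and 0.0436% lower in level in edgeR (14.9% and 6.95% unadjusted). In DESeq2, 5.95% were higher and 1.13% lower. Of the 24 other HMG-box genes tested, 0 changed in level in edgeR or DESeq2 (5 were higher and 1 lower at an unadjusted p-value under 0.05 in edgeR), and their median fraction new in untreated cells was 11.7%, beside 12.2% for all genes. Of FOXO regulators such as AKT and 14-3-3 genes, 0 of 27 changed in edgeR (4 higher and 3 lower unadjusted) and 1 was lower in DESeq2. *SIRT1*, a FOXO deacetylase, had the smallest p-value (log2 fold change 0.46, edgeR adjusted p = 0.120).

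Of 28 FOXO target genes tested, 4 rose and 0 fell in edgeR (8 and 1 unadjusted), and 6 and 0 in DESeq2. Over all genes, 2.64% rose in edgeR (14.9% unadjusted) and 5.95% in DESeq2. The 3 FOXO targets with the smallest p-values were *TXNIP*, an inhibitor of thioredoxin, with a log2 fold change of 2.03 (edgeR adjusted p = 5.46e-05), *KLF6*, a zinc finger factor, with 1.27 (adjusted p = 0.0106), and *CITED2*, a binding partner of CBP and p300, with 0.80 (adjusted p = 0.0125). Fraction new rose in *TXNIP* and fell in *KLF6* and *CITED2*. Of the 24 FOXO targets tested for fraction new, it rose in 1 and fell in 3, beside 0.214% and 4.83% of all genes. Of 32 FOXM1 target genes, 0 passed in edgeR (4 higher and 4 lower unadjusted) and 1 was higher in DESeq2. *LIN54*, a subunit of the complex that binds mitotic promoters, had the smallest p-value (log2 fold change 0.65, edgeR adjusted p = 0.0869). Fraction new fell in 3 of the 32 FOXM1 targets, beside 4.83% of all genes, and labeled reads fell in 6 of the 32, beside 0.632% of all genes. Of 29 SOX partners and catenin pathway genes, 0 passed in edgeR (7 higher and 1 lower unadjusted) and 3 were higher in DESeq2, with the smallest edgeR p-value in *PAX6*, an eye and brain factor that can bind DNA with SOX2 (0.42, adjusted p = 0.0668). Of the 26 of them tested for fraction new, it fell in 3, beside 4.83% of all genes, and unlabeled reads rose in 3, beside 7.3% of all genes.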

How the data were processed

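Total RNA of HEK-293T cells was treated with TimeLapse chemistry, and 1 h libraries were made with a stranded mRNA kit and 2 h libraries with a stranded total RNA kit. For the 1 h experiment, the authors trimmed reads with cutadapt, used hisat-3n for mapping to hg38, and had bam2bakR count the T positions of each read and their conversions to C. The deposited values are read counts per library, gene and number of conversions, without normalization. For the 2 h experiment, the signal used is the mean of counts divided by spike-in size factors over all 2 h libraries, as the authors deposited it. Their log2 fold changes, standard errors and p-values hold the study's own comparisons and were not used.

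Libraries were grouped by the treatment and time in their labels. The library names of the 1 h table carry no time point. They were assigned to the 1 h samples because controls without s4U exist at 1 h only. Counts were summed per gene and tested with edgeR 4.0.16 (TMM, quasi-likelihood) in R 4.3.3 (13776 genes, each over 100 reads in total). Fraction new was the weight of a 2-component binomial mixture fitted by maximum likelihood in Python 3.11.15, with the background rate from the library without s4U of the same treatment (0.0504% and 0.0521% of T positions) and a new-read rate per library (8.49% to 9.53%). Its logit, bounded at 0.001 and 0.999, was tested with limma 3.58.1 (trend, robust) in the 10763 genes that had 100 reads or more in every library. The same test was used for labeled and unlabeled reads, with 0.5 CPM added. Benjamini-Hochberg adjustment covered all genes tested, and calls are at an adjusted p-value under 0.05. With 3 libraries against 3, an exact permutation test of 1 gene cannot give a p-value under 0.1. No molecular identifiers are described, so intervals cover counting error only. Both steps were tested on simulated data. The simulated level changes were larger than those of *FOXC1*, *SOX7* and *SOX9*, and no library was shifted as a whole or by transcript length. The simulation therefore does not cover these features of the data.

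Coordinates, exons and UTRs come from the canonical transcripts of GENCODE 44 (GRCh38, the same build as hg38), for 17005 genes matched by symbol.

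The members and lists were chosen with earlier results of these data known. Values per library are given for members that passed the test of level or fraction new, the 4 of each family with the most reads per kb, and the 4 highest and the 4 lowest in untreated fraction new of each family. *FOXN2*, *FOXO1*, *FOXK1* and *FOXK2* were named in addition after their values were seen. The values of 1 member are not reported here and are not drawn in the figures, but it is included in the counts and medians. Of the other lists, at most 3 were eligible, by smallest p-value for level. Alternatives covered normalization (also with spike-in reads), filters, DESeq2 1.42.0, a trend on length and GC content (mgcv 1.9.3), read minimums of 50 and 500, rates, weights, centering, 0.1 CPM, a replicate block and each library left out. bakR was not run here.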

Additional observations from a re-analysis of the deposited data

Results flagged for a closer look

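In *SOX21* and *FOXN2*, all 3 emetine libraries with s4U lay above all 3 untreated libraries with s4U, whereas the emetine library without s4U lay below the untreated one. In *FOXN2* the groups with s4U were barely separate, at 10.86 CPM in emetine replicate 2 and 10.81 CPM in untreated replicate 3. Its highest value, 18.1 CPM, was that of emetine replicate 3, the library that stood apart. The log2 ratio without s4U was −0.68 for *SOX21* (18.3 and 11.4 CPM) and −0.49 for *FOXN2* (14.0 and 9.96 CPM), against log2 fold changes of 0.43 and 0.55 with s4U, neither of which passed the threshold. With 1 library per treatment without s4U, the difference between both settings was not tested. *SOX21* overlaps an antisense gene, whose part in this was not tested.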

How the results depend on the processing

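Against 4 members with a higher level, there were 2 in edgeR with DESeq2's size factors, 1 with spike-in scaling and 2 with a replicate block. There were 5 in DESeq2's own Wald test, where 5.95% of all genes were higher, and between 0 and 7 with a library left out. The share of all genes called also moved with the setting. It was 2.64% in the main fit, 2.03% with DESeq2's size factors, 0.436% with spike-in scaling and 0.544% with the block. The highest count, 7, came without emetine replicate 3, where 9.91% of all genes were higher. The lowest, 0, came without untreated replicate 1 or 2, where 0.0363% were. 1 member (*FOXM1*) was lower with the length and GC trend removed, where 5.06% of all genes were. With a library left out, 0 to 1 members were lower, where 0% to 3.83% of all genes were. Against 6 members with a lower fraction new, there were 2 at a minimum of 50 reads, 0 at 500 reads, where 13 members were left, and 2 (*FOXC1* and *SOX21*) with genes weighted by reads. Of all genes, 4.83% were lower in the main fit, and 2.53%, 3.22% and 4.8% in these settings. With a library left out there were 0 to 17, where 0.873% to 23.5% of all genes were lower. Unlabeled reads were higher in 3 to 13 members instead of 9. There were 3 without untreated replicate 2 or 3, where 2.68% and 2.52% of all genes were higher. There were 13 without emetine replicate 3, where 13.7% of all genes were. Labeled reads were lower in 0 to 2 members, with 2 without untreated replicate 1, where 16.1% of all genes were. The median fraction new of SOX genes was 41.8% and their median half-life 1.87 h at 500 reads, where 2 genes were left. *SOX7* labeled reads turned from −0.08 to 0.042 without untreated replicate 3, both far from the threshold. Of the 314 values recomputed for single genes, that one included, 244 kept their direction and side of the threshold, 63 lost a call and 6 gained one. The 244 include values that were not called in the main fit and stayed uncalled. The share of calls that were lost is therefore larger than 63 of 314. Where the number of genes or samples did not change, the cause was not tested. Depth limits fraction new in low genes: counting error reached 4.57 percentage points in *SOX7*.

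Replicate numbers are shared between groups, but same-numbered libraries did not deviate together (correlations of deviations of 0.07, −0.02 and −0.18 for level, and 0.056, 0.0025 and 0.022 for fraction new), so the numbers were not taken as pairs. With the replicate block, 2 members (*FOXC1* and *SOX4*) had a higher level, 7 a lower fraction new, 1 higher labeled reads and 7 higher unlabeled reads. The shares of all genes were 0.544%, 6.01%, 0.242% and 3.25%.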
